A study of Homo sapiens with 8 samples.

Results

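Cells of the SEM line that had received siRNA against MLL/AF4 were compared with cells that had been pulsed in the electroporator without siRNA (MOCK). SEM is an established cell line grown from a B-precursor acute leukaemia with the MLL/AF4 fusion. The comparison holds 4 of the 8 arrays of the series, chosen by their labels: siMLL/AF4 on day 2 and day 4 and MOCK on day 2 and day 4, with the difference taken within each day. No array of the control siRNA (siCtrl) enters it. All samples are SEM cells, so the fusion gene is present in the MOCK cells too. Electroporations followed each other every 2 days, and cells were harvested 2 days after a pulse, so the day 2 cells had 1 pulse and the day 4 cells had 2. Each treatment and day had 1 array, all from 1 cell line. The p-values therefore measure how far the differences of the 2 days disagree, moderated over all genes, and not the spread between independent cultures. Precision is limited by how few arrays there are.

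MLL/AF4 joins the start of KMT2A (MLL), a histone methyltransferase, to AFF1 (AF4), a subunit of the complex that releases paused RNA polymerase. The fusion protein recruits elongation factors and the methyltransferase DOT1L to its target genes and keeps them transcribed. In B-precursor leukaemia its targets include homeobox cofactors, cell cycle genes and surface receptors. Mock electroporation controls for the pulse alone, whereas control siRNA also brings a foreign double-stranded RNA into the cell. The difference from MOCK therefore holds the response to the fusion siRNA together with any response to siRNA as such, and the 4 arrays cannot tell these apart.

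Levels are log2 intensities and differences are log2 differences, siMLL/AF4 minus MOCK. The deposited values were read as natural logs, which is an inference from their distribution, and were converted. If they were logs to base 2, every level and difference would be 0.693 times as large. Each array had values for all but 28.6 to 28.7% of 39421 probes, and the array medians lay between 5.1587 and 5.1592. Rank correlations across probes among the 4 arrays lay between 0.911 and 0.922. Of 12 B-cell precursor markers, 6 reached the median probe on at least 1 of the 4 arrays, among them EBF1, VPREB1 and CD79A. PAX5 stayed at or below 4.55. Of 13 T and NK cell markers 3 reached the median probe (NKG7, GZMA and CD8A), and of 13 myeloid markers 2 did (LYZ and CSF1R), while MPO, ELANE and S100A8 had no value on any of the 4 arrays.

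The probes of the 2 fusion partners did not mark the knock-down against MOCK. These probes can read the normal alleles, and whether they read the fusion transcript was not checked. They are therefore at most a partial check of the labels. KMT2A measured 7.11 and 6.38 in MOCK on day 2 and day 4, and 7.17 and 6.42 in siMLL/AF4. The difference was 0.05 ± 0.32 (SE, 2 pairs of arrays). Standard errors here and below are limma's moderated values. They rest mostly on a spread shared by all genes (12.3 prior degrees of freedom against 1 residual) and little on the gene's own arrays. In siCtrl, KMT2A lay above MOCK by 0.55 on day 2 and by 0.59 on day 4. The tested AFF1 probe differed from MOCK by -0.60 on day 2 and 0.13 on day 4, and another AFF1 probe by 1.14 and -0.05. Both AFF1 probes were higher in siCtrl than in MOCK, by 1.32 to 1.49 on the 2 days.

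Of 8796 genes tested, 294 (3.34%) passed limma's test at an adjusted p of 0.05, of which 147 were higher in siMLL/AF4 and 147 were lower (1.67% of the genes tested in each direction). The even split did not hold when 1 array was left out. Those fits also dropped the day block, so the change cannot be tied to the missing array alone. The count of 294 rests on how the spread was estimated from 4 arrays with 1 residual degree of freedom. It was 0 without the day block, 0 without the filter on dim genes, 6 when the 2 siCtrl arrays were added to the estimate of spread, 95 after quantile normalization and 967 with a trended robust variance. The 6 genes were REEP3, IFI44, FCRLA and NLGN4X, which rose, and PPDPF and CD1A, which fell. For all other genes, "rose" and "fell" below refer to the fit on the 4 arrays only. The standard error was at least 0.316 for every gene, and the smallest difference that passed was 1.24, so the test acted much like a threshold on the mean difference. Without any test, 357 genes (4.06%) differed at least 2-fold the same way on both days, 190 higher (2.16%) and 167 lower (1.9%), and 16 (0.182%) differed at least 2-fold in opposite directions. On day 2 alone 1528 genes (17.4%) were at least 2-fold apart, and on day 4 alone 1038 (11.8%). The sign was the same on both days for 66.6% of the genes. Treatments that do not overlap are common with 2 arrays each: both siMLL/AF4 values lay above both MOCK values for 25.8% of the genes tested and below both for 23.6%.

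**Figure D1:**
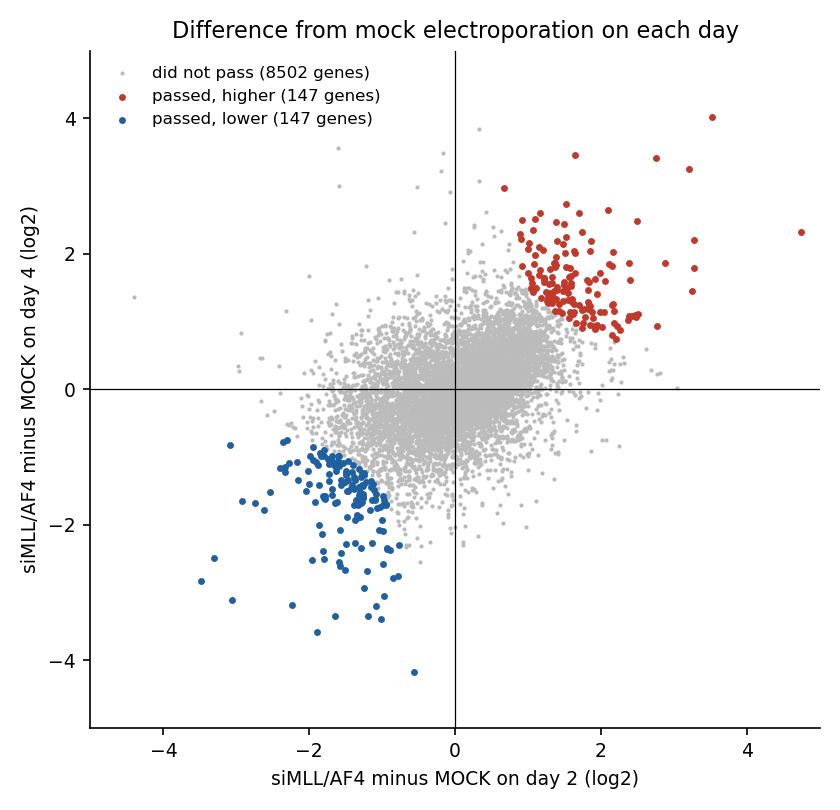
Difference between siMLL/AF4 and MOCK on day 2 (horizontal axis) and day 4 (vertical axis), in log2 units, for 8796 genes, 1 point each. The 147 genes that passed as higher lie at the upper right and the 147 that passed as lower at the lower left. The days are single pairs of arrays.

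The genes with the largest steady rise were REEP3, IFI44 and FCRLA. REEP3, which helps to keep the endoplasmic reticulum off mitotic chromosomes, measured 7.91 and 6.93 in MOCK on day 2 and day 4 and 11.43 and 10.95 in siMLL/AF4. The treatments did not overlap, as for 25.8% of all genes in that direction, and the difference was 3.77 ± 0.32 (SE, 2 pairs, limma adjusted p = 0.000195). REEP3 was also higher in siCtrl than in MOCK, by 2.23 and 1.36. FCRLA, an Fc receptor-like protein of B cells, measured 5.43 and 6.24 in MOCK and 8.19 and 9.65 in siMLL/AF4, a difference of 3.09 ± 0.33 (adjusted p = 0.000523). In siCtrl it lay 0.59 and 0.12 below MOCK, so both siMLL/AF4 values stood above all 4 control values. How many other genes had such values was not counted.

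For a further 4 genes that rose, siCtrl exceeded MOCK by at most 0.67 on the tested probe. NLGN4X, a neuroligin encoded on the X chromosome, measured 5.45 and 6.35 in MOCK and 7.94 and 8.83 in siMLL/AF4 (difference 2.49 ± 0.32, adjusted p = 0.00223). A second NLGN4X probe differed by 2.42 and 2.87, with siCtrl 1.28 above MOCK on day 2. TLR10, a Toll-like receptor of B cells, measured 7.46 and 7.36 in MOCK and 9.55 and 10.01 in siMLL/AF4 (difference 2.37 ± 0.33, adjusted p = 0.00417). ELMO1, an adaptor that activates Rac, rose by 2.10 ± 0.32 (adjusted p = 0.00783). A second ELMO1 probe differed by 1.79 and 1.73, with siCtrl 1.20 and 1.17 above MOCK. GABARAPL1, an ATG8 family protein of autophagosomes, measured 6.12 and 7.57 in MOCK and 7.97 and 9.62 in siMLL/AF4. Its rise of 1.95 ± 0.32 (adjusted p = 0.00885) contrasts with siCtrl, which lay 1.32 and 0.72 below MOCK.

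Other leading genes were less clear beside siCtrl or between probes. ATOSA rose by 2.03 ± 0.32 from 7.54 and 6.80 in MOCK, and siCtrl was high too, at 9.04 and 8.46. CRIM1, a transmembrane protein that binds growth factors, rose by 2.38 ± 0.35, and siCtrl exceeded MOCK by 2.35 on day 2 and 0.31 on day 4. COL8A1, a collagen chain, rose by 2.12 ± 0.32, with siCtrl 0.92 below MOCK on day 2 and 0.92 above it on day 4. TMEM158 rose by 3.53 ± 0.46, from a MOCK value of only 1.46 on day 2, and SSX4 by 2.74 ± 0.35. TMEM158 in siCtrl differed from MOCK by 4.13 on day 2 and -0.18 on day 4. SSX4 belongs to a family of near-identical copies and its probes disagreed: another probe differed by -2.19 and -1.75, so its value is uncertain. Among genes with a value under the 25th percentile, TMEM117 rose by 2.53 ± 0.38 and PTPN22, a phosphatase of lymphocyte receptor signalling, by 2.55 ± 0.40. TMEM117 in siCtrl differed from MOCK by 2.89 on day 2 and 1.11 on day 4, and PTPN22 by 0.05 and 2.55.

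CD1A and PPDPF led the genes that were lower. CD1A, a lipid-presenting relative of MHC class I, measured 6.71 and 6.83 in MOCK and 3.65 and 3.72 in siMLL/AF4, a difference of -3.08 ± 0.32 (adjusted p = 0.000493). The treatments did not overlap, as for 23.6% of all genes in that direction. The siCtrl values lay between those of MOCK and siMLL/AF4, 0.84 and 1.40 below MOCK (differences -0.84 and -1.40). PPDPF measured 7.72 and 8.30 in MOCK and 4.23 and 5.46 in siMLL/AF4, a difference of -3.16 ± 0.33, and siCtrl differed from MOCK by -1.74 and -2.20. NRGN, neurogranin, a calmodulin-binding protein, measured 9.07 and 9.49 in MOCK and 7.11 and 6.98 in siMLL/AF4 (difference -2.24 ± 0.33, adjusted p = 0.00603). NRGN in siCtrl differed from MOCK by -0.82 and -1.39.

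AIF1, an actin-binding protein of macrophages, fell by 2.20 on the log2 scale, and HCST, the signalling adaptor DAP10 of NK receptors, by 2.21. AIF1 in siCtrl differed from MOCK by -0.803 and -0.345 on day 2 and day 4, and HCST by -1.90 and -0.66. H2AX, the histone variant that is phosphorylated at DNA breaks, measured 10.89 and 11.06 in MOCK and 9.09 and 8.67 in siMLL/AF4 (difference -2.10 ± 0.33). H2AX in siCtrl differed by -0.435 and -1.621. CRTC1, a coactivator of CREB, had a difference of -1.93, and siCtrl differed by -0.08 on day 2 and -2.82 on day 4. SSBP3 had a difference of -1.98 with the tested probe and 0.28 with another, so its probes disagreed. With the tested probe, SSBP3 in siCtrl differed from MOCK by -0.70 and -2.35. IRX6, POMGNT2 and SAMD1 fell as well, with differences of -2.90, -2.71 and -2.74. On the day 4 siMLL/AF4 array POMGNT2 and SAMD1 measured only 3.46 and 3.42, under its 25th percentile. IRX6 was lower in siCtrl too, with a difference of -3.92 on day 2. Among further dim genes, CHI3L2 had a difference of -2.10 and RFNG of -2.21, and a second RFNG probe differed by 0.35. CHI3L2 in siCtrl differed from MOCK by -0.83 and -1.32, and the tested RFNG probe by 0.53 and -1.12.

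**Figure D2:**
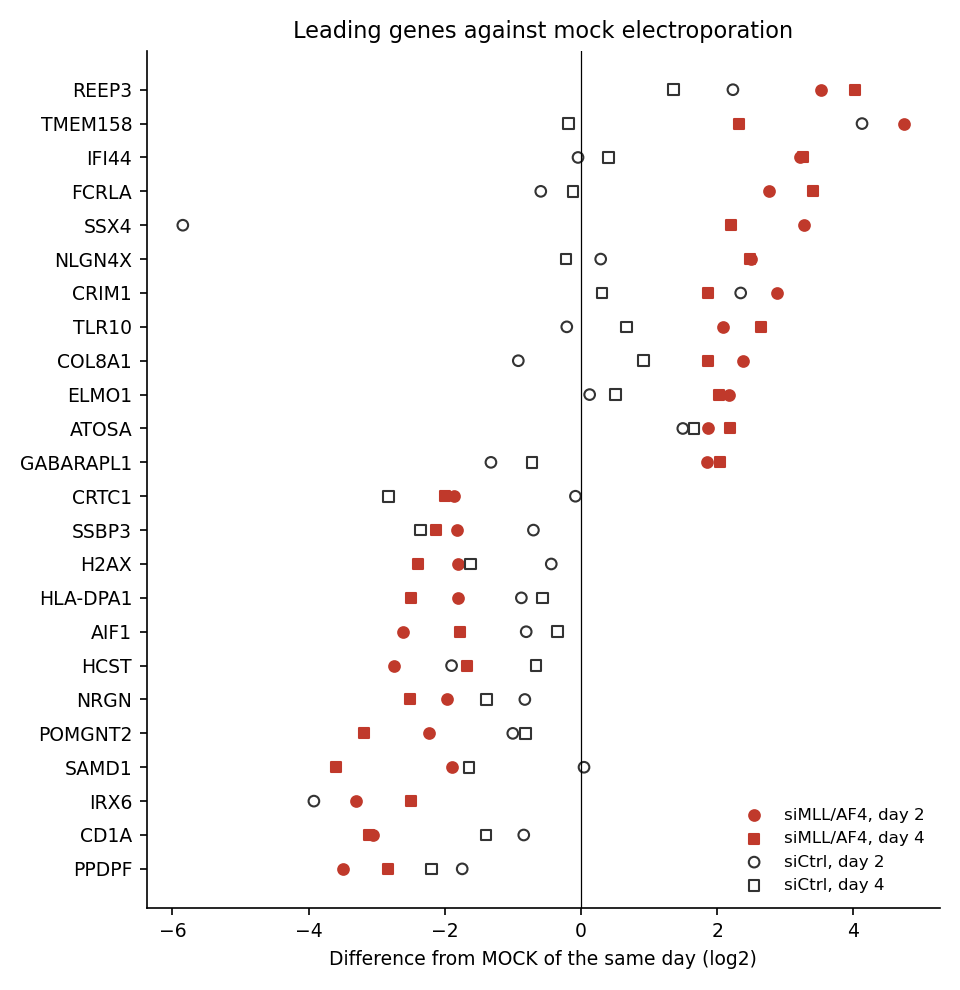
The 12 genes that led in each direction, by the smaller of their daily differences among genes that passed. Horizontal positions are log2 differences from the MOCK array of the same day: filled marks are siMLL/AF4, open marks siCtrl, circles day 2 and squares day 4. For IFI44, FCRLA and NLGN4X the open marks lie near 0, whereas for REEP3, ATOSA and PPDPF they lie on the same side as the filled marks. SSX4 and IRX6 had no siCtrl value on day 4.

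Missing values showed a further set of probes. On 724 probes with 1 gene symbol both siMLL/AF4 arrays had a value and neither MOCK array did, and on 639 the reverse held. Only 5 and 7 of these reached the median probe in mean level. The brightest of the former were THAP2, BROX, SAMD8 and PIP5K1B, and of the latter DPF1, SEMA3F, PTP4A3 and PPP1R14C. PIP5K1B, a lipid kinase, measured 4.73 and 5.74 in siMLL/AF4, and 5.46 and 5.07 in siCtrl. Among 1807 unannotated probes above the filter, 30 were at least 2-fold higher on both days and 28 at least 2-fold lower (3.21%).

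Interferon-stimulated genes are switched on by STAT and IRF factors that bind a response element in their promoters, and several encode antiviral proteins. Of 33 tested members of the list, 3 rose (IFI44, IFIT2 and IFIT5) and 1 fell (IFITM2), against 3.34% of all genes that passed. The median difference was 0.29, against 0.02 over all genes tested, and 21 members lay above 0. IFI44, which restrains viral replication, measured 5.54 and 6.65 in MOCK and 8.75 and 9.91 in siMLL/AF4, with siCtrl at 5.50 and 7.05. Its difference was 3.24 ± 0.32 (adjusted p = 0.000477). IFIT2, which binds foreign RNA, rose by 1.66 ± 0.33 (adjusted p = 0.0206), with siCtrl 0.09 and 0.55 above MOCK. IFIT5 rose by 1.36 ± 0.32, but siCtrl exceeded MOCK by more, by 1.70 and 1.43. IFITM2, which blocks virus entry, had a difference of -1.39, and siCtrl one of -1.13 and -0.84. IFIT1 (1.12, adjusted p = 0.0698) and IFITM3 (-1.48, adjusted p = 0.0728) did not pass. Of 6 tested guanylate-binding proteins and their regulators 1 rose, against 1.67% of all genes: GBP2, an interferon-induced GTPase, by 1.43 ± 0.32 while siCtrl lay at -1.13 and -0.34. The other 5, with IRF1 at 1.17 (adjusted p = 0.0646), did not pass.

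The stretches just upstream of the RefSeq starts (GRCh38.p14) of IFI44 and IFIT5 are shown because they hold the letters of the interferon-stimulated response element (GAAA, any 2 bases, GAAA), in capitals, here read on the reverse strand of the gene. IFI44 lies on the forward strand (chr1:78649681-78649830) and IFIT5 too (chr10:89414418-89414567).
IFI44: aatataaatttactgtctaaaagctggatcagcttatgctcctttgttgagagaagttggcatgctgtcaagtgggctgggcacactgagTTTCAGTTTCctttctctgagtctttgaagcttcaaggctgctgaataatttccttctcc
IFIT5: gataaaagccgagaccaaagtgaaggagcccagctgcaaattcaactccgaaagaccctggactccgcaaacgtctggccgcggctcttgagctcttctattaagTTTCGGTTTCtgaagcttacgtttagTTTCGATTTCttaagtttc
These letters lie within 250 bases upstream of 3.02% of 35097 RefSeq starts. Of the 32 listed interferon genes there, 20 have them at 1 of their starts or more (62.5%), against 3.71% of all genes. IFI44 and IFIT5 were chosen for printing because they passed and hold a match. IFIT2 and GBP2 are not shown.

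The motif letters searched, on both strands of the 250 bases upstream, were 8 in all, over 4 lists. They were the interferon element above, TGACNNNGC (antioxidant response element), CCAAT, TCACNCCAC and CACCCCAC (sterol response element), CTGATTGG (Y box) and a short and a long form of the X box, given here by name only. They overlap: the second sterol form can lie within the first, the long X box holds the short form, and the Y box holds a CCAAT box on the reverse strand. The 3 used for the printed stretches were picked after the matches had been seen.

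NRF2 (NFE2L2) is released from its inhibitor KEAP1 under oxidative stress and then drives enzymes that make glutathione and NADPH. This list was taken up among 38 because its members had been seen to move, so it is a description. Of 11 tested members 1 passed, ME1, against 3.34% of all genes, and 9 lay above 0, against 51.8%. The median difference was 0.68, against 0.02 over all genes, at 0.80 on day 2 and 0.66 on day 4. In siCtrl the medians were -0.08 and 0.20. Over the alternative settings the median stayed between 0.47 and 0.80.

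ME1, malic enzyme, which makes NADPH, measured 6.42 and 6.84 in MOCK and 7.48 and 8.41 in siMLL/AF4, and rose by 1.32 ± 0.32 (adjusted p = 0.0434). In siCtrl ME1 lay 0.35 and 0.36 above MOCK. GCLM, the modifier subunit of the enzyme that limits glutathione synthesis, measured 9.38 and 9.21 in MOCK, 10.18 and 11.09 in siMLL/AF4. Its difference of 1.34 ± 0.35 did not pass (adjusted p = 0.0547). The quinone reductase NQO1 (1.20, adjusted p = 0.0598), thioredoxin reductase TXNRD1 (1.09, adjusted p = 0.0722) and GCLC, the catalytic partner of GCLM (0.98, adjusted p = 0.0978), did not pass either. For GCLM, NQO1, ME1 and TXNRD1, both siMLL/AF4 values stood above both MOCK values, as they did for 25.8% of all genes. PIR, pirin, a nuclear protein whose gene is known to respond to NRF2, lies outside the list and the naming rule and was chosen after its values were seen: it measured 7.49 and 8.02 in MOCK and 9.13 and 10.03 in siMLL/AF4, and rose by 1.83 ± 0.32 (adjusted p = 0.0129). In siCtrl PIR lay 0.81 and 0.34 below MOCK (differences -0.81 and -0.34).

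The antioxidant response element letters TGACNNNGC lie upstream of GCLM, ME1 and TXNRD1, in capitals below, and these stretches are shown for that match. GCLM lies on the reverse strand (chr1:93909431-93909580), ME1 too (chr6:83431052-83431201), and TXNRD1 on the forward strand (chr12:104215629-104215778, at 1 of several RefSeq starts).
GCLM: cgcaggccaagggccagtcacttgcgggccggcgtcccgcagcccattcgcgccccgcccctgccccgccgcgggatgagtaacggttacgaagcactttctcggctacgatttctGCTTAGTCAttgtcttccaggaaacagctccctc
ME1: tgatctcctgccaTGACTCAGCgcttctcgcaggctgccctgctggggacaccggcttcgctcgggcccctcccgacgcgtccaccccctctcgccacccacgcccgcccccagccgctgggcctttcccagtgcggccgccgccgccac
TXNRD1: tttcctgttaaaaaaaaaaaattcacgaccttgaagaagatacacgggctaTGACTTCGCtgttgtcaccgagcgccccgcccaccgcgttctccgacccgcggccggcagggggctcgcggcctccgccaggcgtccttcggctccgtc
The letters occur upstream of 10.9% of the 35097 starts. Of the 11 listed NRF2 genes there, 4 hold them (GCLM, TXNRD1, ME1 and KEAP1; 36.4%), against 13.2% of all genes. They are short, and their presence is not evidence of binding.

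Cholesterol is built from acetyl-CoA through mevalonate, squalene and lanosterol, and SREBP2 raises the genes of this route when sterols are scarce. Of 17 tested members of the list 16 had a mean difference below 0 and 1 above it, with a median of -0.57 (-0.60 on day 2 and -0.78 on day 4). Over all genes tested 48.2% lay below 0. Only MVK passed, 1 of 17 against 3.34% of all genes. MVK, mevalonate kinase, measured 7.35 and 7.34 in MOCK and 6.49 and 4.55 in siMLL/AF4, a difference of -1.82 ± 0.41 (adjusted p = 0.0312), and siCtrl differed by -1.32 and -0.69. DHCR7, the last enzyme of the route (-1.21), EBP (-1.17), LSS, lanosterol synthase (-1.16), and FDPS, farnesyl diphosphate synthase (-1.03), did not pass. The siCtrl medians were -0.31 and -0.38, with 7 members above 0. MMAB, which encodes a vitamin B12 enzyme and whose start faces that of MVK, was chosen after its values were seen. It measured 8.76 and 7.80 in MOCK and 7.12 and 6.12 in siMLL/AF4, a difference of -1.66 ± 0.32 (adjusted p = 0.0186), and siCtrl differed by -1.17 and -0.52. Of 11 tested genes of the fatty acid list, which also holds ME1, 1 rose (ME1) and 1 fell, against 3.34% of all genes, and the median was -0.01. The gene that fell was FADS2, a fatty acid desaturase, with a difference of -1.65 (adjusted p = 0.0310), and FADS1 had a difference of -1.14 without passing.

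The MVK and MMAB starts lie 289 bases apart, head to head. The 250 bases upstream of MVK (chr12:109573544-109573793, forward strand) lie between them, and are shown with CCAAT boxes in capitals.
MVK: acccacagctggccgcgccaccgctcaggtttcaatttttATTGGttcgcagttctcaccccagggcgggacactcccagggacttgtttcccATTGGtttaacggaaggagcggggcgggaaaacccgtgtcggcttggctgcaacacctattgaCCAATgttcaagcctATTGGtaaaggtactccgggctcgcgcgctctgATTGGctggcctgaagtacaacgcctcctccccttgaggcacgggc
This stretch holds 5 CCAAT boxes in either orientation, which 0.313% of the 35097 starts do. At least 1 lies upstream of 32% of starts and of 37% of genes, and of 16 of the 18 listed cholesterol genes in that table (88.9%). The sterol letters TCACNCCAC were found upstream of SREBF2 alone among these 18 (1.09% of all genes).

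MHC class II molecules present peptides to helper T cells. Their alpha and beta chains pair with the invariant chain CD74, and CIITA acts on all of them through the RFX complex. Of 12 tested members 3 fell, against 1.67% of all genes, and 9 had a mean difference below 0, against 48.2%. The median was -0.72, against 0.02 over all genes. HLA-DPA1 measured 11.94 and 12.04 in MOCK and 10.13 and 9.54 in siMLL/AF4 (difference -2.15 ± 0.33, adjusted p = 0.00795). CD74 measured 13.63 and 13.93 in MOCK and 11.85 and 12.30 in siMLL/AF4 (difference -1.70 ± 0.32, adjusted p = 0.0173). HLA-DRB4 had a difference of -1.48 ± 0.32 and can share signal with other DRB copies. The treatments did not overlap for these 3 genes, as for 23.6% of all genes in that direction. CIITA, however, had a difference of 0.88, RFX5 of 0.35 and RFXAP of 0.19, none of which passed. In siCtrl the list's medians were -0.56 and -0.57, close to those of siMLL/AF4 at -0.60 and -0.59. Of 14 tested genes of class I presentation, CALR, calreticulin, a chaperone of the endoplasmic reticulum, was the only member to pass (-1.62 ± 0.35, adjusted p = 0.0285), against 3.34% of all genes, and 12 lay below 0, against 48.2%. In siCtrl CALR differed by -0.74 and -1.36, and the medians of this list were -0.52 and -0.37.

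**Figure D3:**
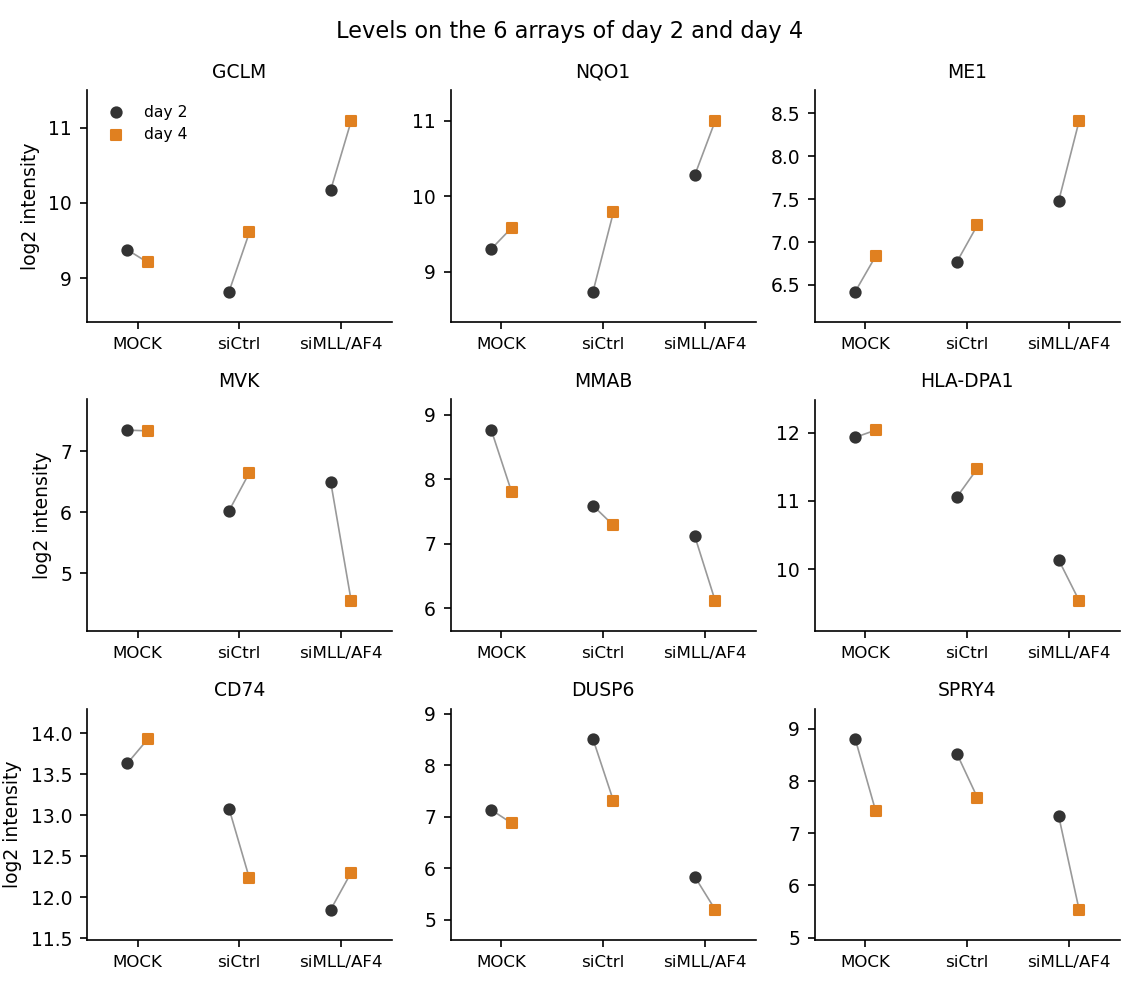
Log2 intensities of 9 genes on the 6 arrays of day 2 (circles) and day 4 (squares), 1 array per treatment and day, joined by a line within a treatment. Axes do not start at 0 and differ between panels. For GCLM, NQO1, ME1, HLA-DPA1 and DUSP6 the siMLL/AF4 arrays stand apart from both MOCK arrays, whereas for SPRY4 siMLL/AF4 on day 2 lies just under MOCK on day 4; for CD74 the day 4 siCtrl array lies among the siMLL/AF4 arrays.

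Feedback genes of the ERK pathway are induced when ERK is active and limit it. Of 9 tested members 2 fell, against 1.67% of all genes, and 4 lay above 0. SPRY4, a Sprouty inhibitor of receptor signalling, measured 8.80 and 7.43 in MOCK and 7.33 and 5.54 in siMLL/AF4 (difference -1.69 ± 0.32, adjusted p = 0.0186). The siMLL/AF4 value of day 2 lay just under the MOCK value of day 4. DUSP6, the phosphatase of ERK, measured 7.13 and 6.87 in MOCK and 5.83 and 5.20 in siMLL/AF4 (difference -1.49 ± 0.32, adjusted p = 0.0279), and siCtrl was higher than MOCK, by 1.37 and 0.44. SPRY1, another Sprouty gene, had a difference of 0.94 and did not pass (adjusted p = 0.113). EGR1, an immediate early transcription factor, did not pass either (-0.90, adjusted p = 0.123). In the next 3 lists the counts stand against 3.34% of all genes that passed, 1.67% in each direction. Of 23 immediate early genes 1 passed, NR4A2, a nuclear receptor, which rose by 2.15 ± 0.34. Of 16 trafficking genes 1 rose and 1 fell: ENPP2, autotaxin (1.59 ± 0.35), and S1PR4, a sphingosine phosphate receptor (-1.32 ± 0.32). S1PR4 was lower in siCtrl too, with differences from MOCK of -1.15 on day 2 and -1.12 on day 4. ENPP2 in siCtrl differed by -0.93 and 0.68. KLF2, which drives such genes in lymphocytes, differed by 0.33 on day 2 and 3.08 on day 4 and did not pass (adjusted p = 0.0685). Of 21 autophagy genes 2 rose, GABARAPL1 and NBR1, an autophagy receptor (1.36 ± 0.33).

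None of the 25 tested targets of MLL/AF4 itself fell against MOCK. Of these members 16 lay above 0 and 9 below, with a median of 0.24 (siCtrl 0.68 and 0.61). Set against siCtrl, with the same siMLL/AF4 arrays, their medians were -0.49 on day 2 and -0.45 on day 4. Over all genes tested these medians were 0.11 and -0.02. The 2 that passed, REEP3 and SENP6, a SUMO protease (1.37 ± 0.32), both rose, against 1.67% of all genes, and both were higher in siCtrl too. PROM1, the stem cell surface protein CD133, measured 13.94 and 13.91 in MOCK and 14.05 and 12.61 in siMLL/AF4, with differences of 0.12 on day 2 and -1.30 on day 4 (adjusted p = 0.369). MEIS1, a homeobox cofactor of HOXA9, had a difference of 0.07, FLT3, a receptor tyrosine kinase, one of -0.13, RUNX1 one of 0.10 and CDK6 one of 0.30. Of the 4 tested HOXA partners and of 20 tested members of the fusion's complexes none passed limma's test (0 and 6 at an unadjusted p under 0.05, against 22.6% of all genes). ELL2, an elongation factor, had a difference of 1.39 (adjusted p = 0.0698) and DOT1L one of -0.69.

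No member passed limma's test in several lists, 5 of which are described here. At an unadjusted p under 0.05 there were 14 of 58 genes of oxidative phosphorylation, 4 of 27 of the proteasome, 4 of 35 of DNA replication, 6 of 67 of ribosomal proteins and 6 of 17 of the p53 response, against 22.6% of all genes. Subunits of oxidative phosphorylation lay below 0 in 52 of 58 tested genes, with a median of -0.94 on day 2 and -0.18 on day 4. In siCtrl the same number, 52, lay below 0, with medians of -0.46 and -0.24. Proteasome subunits lay above 0 in 21 of 27 (median 0.24), but in siCtrl in 4 of 27, and their median under the alternatives ran from -0.01 to 0.57. DNA replication genes, 35 in all, had medians of 0.22 and -0.29 on the 2 days, and 67 ribosomal protein genes medians of -0.38 and 0.12. Genes of p53 response had a median of 0.51 over 17 members. PMAIP1, the BH3-only protein NOXA, differed by 1.11 and RRM2B, a p53-induced subunit of ribonucleotide reductase, by 1.15, whereas BAX, a pore-forming BCL2 relative, differed by -1.13, and none of the 3 passed. Of these 17 genes 6 lay below 0. Of 2 tested T and NK markers GZMA, granzyme A, fell (-1.79 ± 0.32, adjusted p = 0.0133), and of 6 tested B-cell precursor markers CD22 fell (-1.26 ± 0.32, adjusted p = 0.0486), against 1.67% of all genes that fell. The summed intensity of the T and NK list was 1008 and 950 in MOCK and 414 and 772 in siMLL/AF4, and that of the B-precursor list 12676 and 8305 in MOCK and 8785 and 10757 in siMLL/AF4. The part of a change in cell make-up in any result was not tested. Fewer cells of a type and less RNA per cell cannot be told apart in bulk RNA.

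**Figure D4:**
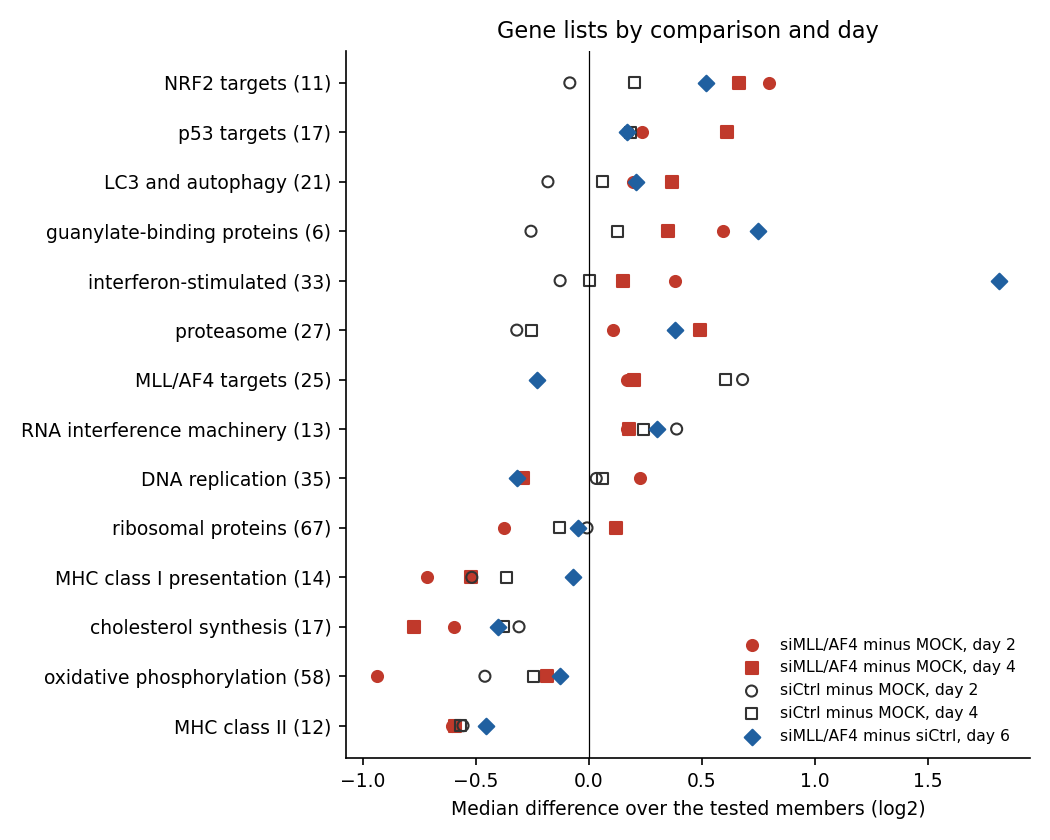
Median log2 difference over the tested members of 14 gene lists (the number tested in parentheses). Filled circles and squares are siMLL/AF4 minus MOCK on day 2 and day 4, open ones siCtrl minus MOCK, and diamonds the day 6 difference of siMLL/AF4 and siCtrl. The NRF2 list has siMLL/AF4 marks at 0.80 and 0.66 and open marks near 0, and the oxidative phosphorylation list has all marks below 0.

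The same genes can be set beside siCtrl, though these comparisons share arrays with the one above and are therefore no separate evidence. For the 147 genes that passed as higher, the median of siMLL/AF4 minus MOCK was 1.58 on day 2 and 1.53 on day 4. For these genes siCtrl minus MOCK, with the same MOCK arrays, had medians of 1.48 and 0.83, and siMLL/AF4 minus siCtrl, with the same siMLL/AF4 arrays, of 0.14 and 0.67. For the 147 lower genes the medians were -1.49 and -1.55 against MOCK, -0.79 and -1.06 for siCtrl minus MOCK, and -0.80 and -0.52 for siMLL/AF4 minus siCtrl. Over all genes tested, the medians of these 6 differences lay between -0.13 and 0.11.

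On day 6 siMLL/AF4 and siCtrl were each measured once more, on a newer version of the array, so that this pair shares no array with the comparison. The labels give MOCK for day 2 and day 4 only, and the day 6 cells had 3 pulses. Of 129 genes that had passed as higher and had a value there, 98 (76%) were higher in siMLL/AF4 on day 6, against 43.5% of 8409 genes measured on both. At least 2-fold higher were 46 (35.7%), against 6.17%. Of 132 genes that had passed as lower, 120 (90.9%) were lower, against 56.5%, and 50 (37.9%) at least 2-fold, against 10.7%. These are 2 single arrays, and no test was made. The day 6 difference was 4.79 for FCRLA, 3.90 for IFI44, 4.10 for GABARAPL1, 2.66 for NLGN4X, 1.98 for REEP3, -1.67 for CD1A and -1.22 for PPDPF. Other leading lower genes differed little on day 6: SSBP3 by -0.02, CRTC1 by -0.03, SAMD1 by -0.23 and IRX6 by 0.215. Of the 11 NRF2 genes 10 were higher on day 6, with NQO1 at 2.45 and GCLM at 1.73, and PIR lay at 2.61. Of 31 interferon genes with a value 28 were higher, with a median of 1.82, whereas their median against MOCK had been 0.29. Of 24 listed MLL/AF4 targets with a value 18 were lower on day 6, against 56.5% of all genes, and 6 were higher. The median of these targets was -0.23, against -0.08 over all genes measured. MVK differed by -3.08 on day 6, but MMAB by only -0.26.

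**Figure D5:**
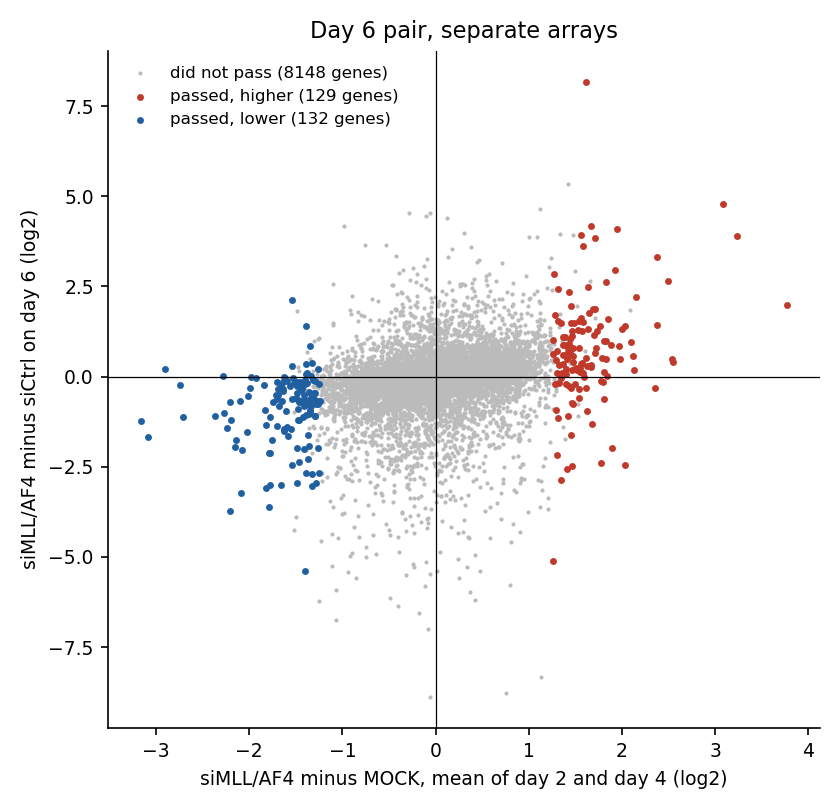
Mean difference of siMLL/AF4 from MOCK over day 2 and day 4 (horizontal axis) and difference of siMLL/AF4 from siCtrl on day 6 (vertical axis), log2, for 8409 genes measured on both array versions. Of 129 genes that passed as higher 98 lie above 0 on day 6, and of 132 that passed as lower 120 lie below 0.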

How the data were processed

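Biotin-labelled total RNA was measured on Illumina bead arrays, per the labels, and the submitters' processing notes name GenomeStudio, with no version. The sources used here do not give the background correction or normalization. The deposited values were taken as natural logs, an inference: read as base e, the share of values per unit of intensity near 0 stayed level (2.21, 2.30 and 2.29%), and read as base 2 it climbed (2.21, 4.44 and 5.42%). They were divided by the natural log of 2. Null entries were taken as missing. A gene was tested where its brightest probe with 1 symbol had values on all 4 arrays and a mean of at least 5.159, the median probe. Symbols were updated through RefSeq for 27177 of 27210 probes.

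limma 3.58.1 (R 4.3.3; lmFit, eBayes, two-sided) was fitted with treatment and day as a block, with Benjamini-Hochberg adjustment over 8796 genes at 0.05. Samples of a day were harvested together in the time course, so the day pairs them. Across genes, the change from day 2 to day 4 correlated at 0.259 between MOCK and siMLL/AF4. The fit was tested on 10 simulated data sets with 200 genes changed in each and the spread drawn from the fit's own estimate. It recovered 20.6% of the genes changed by 1 on the log2 scale, 97.2% of those changed by 2 and 100% of those changed by 3 or 5. On average 20.9 unchanged genes passed as well, a larger share of the passing genes than the adjusted p of 0.05 aims at. The simulated arrays had no day effect. The text names genes from a set made by rule: the 12 genes in each direction with the largest smaller daily difference among those that passed, 4 dim genes and 4 with missing values in each direction, up to 5 members per list by size, tested members of the MLL/AF4 target, HOXA and fusion complex lists (some of each are named), and 4 genes with opposite days. Outside this set the text also names IFIT1, CIITA, RFX5, RFXAP, PIR and MMAB, cell type markers, and genes given only for their promoter letters. The members and the 38 lists were chosen with earlier results of these data known. Alternatives changed the spread, block, normalization, filter, offset, probes, missing values and log base and left out arrays. Figures were drawn with matplotlib 3.10.9.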

Additional observations from a re-analysis of the deposited data

Results flagged for a closer look

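These results point opposite ways on the 2 days, each a single pair of arrays, and the difference between the days was not tested. The values are siMLL/AF4 minus MOCK, log2. The 4 genes with the largest opposite differences were ZNF600, a zinc finger gene, with -2.01 on day 2 and 1.67 on day 4, RN7SK, the RNA that holds the elongation factor P-TEFb inactive, with -1.61 and 3.56, RIMBP3 with -1.58 and 3.01, and the histone gene H4C8 with -4.40 and 1.36. RN7SK measured 12.58 and 9.62 in MOCK and 10.97 and 13.17 in siMLL/AF4, so the MOCK arrays also differed between the days.

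Medians of 7 lists with at least 5 tested members also changed sign, by at least 0.1 on each day. Fatty acid synthesis was at 0.36 on day 2 and -0.45 on day 4, DNA replication at 0.22 and -0.29, and MYC with ribosome biogenesis at 0.15 and -0.28. Ribosomal proteins were at -0.38 and 0.12, the ATF4 and tRNA synthetase list at 0.21 and -0.36, B-cell precursor markers at -0.84 and 0.34 and glycolysis at 0.21 and -0.19.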

How the results depend on the processing

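The number of genes that passed, 294, moved with nearly every choice about the spread. Without the replicate block for day it was 0 (1387 genes at an unadjusted p under 0.05 by limma), without the filter 0 (1268), and with the siCtrl arrays in the estimate of spread 6 (1960). Quantile normalization gave 95, the filter at the 70th percentile 611, offsets of 16 and 64 gave 831 and 891, and a trended robust variance 967. Leaving out 1 array, which ends the pairing, so that day was dropped and the lone array was assumed to vary like the other group, gave 32 to 440. It was 32 without the day 2 MOCK array, 41 without the day 4 MOCK array, 43 without the day 2 siMLL/AF4 array and 440 without the day 4 siMLL/AF4 array. A common median (290), the mean of probes (229) and missing values at a floor (278) stayed within 1.5 times. Values read as log2 gave 294 by construction, because scaling all values by 1 factor leaves limma's p-values unchanged. Chosen after seeing the data, the siCtrl arrays in the spread gave 539 with the stricter filter and 613 with the trended robust variance. The count of genes at least 2-fold apart on both days, 357, became 154 with the stricter filter (alone and with the siCtrl arrays), 672 without the filter, 111 with the offset of 64 and 78 with values read as log2. From day 4 or day 2 alone it was 1038 or 1528. Among the named genes that passed, 0 values under the alternatives changed sign. Of 740 list medians, 65 took the opposite sign. Scaling moved the median of all genes by no more than 0.014. Signal near background limits dim genes, whose values can fall on either side of the missing entries.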
